A study of Mus musculus with 4 samples.

Results

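The genes described here are 9 components of cytokine signalling, chosen by name: the transcription factors Stat2, Stat3, Stat5a, Stat5b and Stat6, the feedback inhibitors Socs1 and Socs3, and the receptor chains Osmr and Il6st. The choice was made with earlier results of these data known, so counts over the 9 genes are no independent evidence of a direction. All 9 were found by exact symbol among the 25393 genes listed. They were measured by RNA-seq in cultured primary astrocytes from the cortex and hippocampus of untreated C57BL/6 pups at postnatal day 1, with 2 libraries from wild-type (WT) pups and 2 labelled as Tet1 knockout (KO, tet1-/-, a constitutive deletion per the study). Per the labels, each isolation pooled 2 mice, the cells grew for about 7 days, were shaken at 260 rpm and were collected 24 hours later. The study calls its RNA-seq repeats biological, but the labels do not say which culture each of these libraries came from, so the p-values measure only the spread between these libraries.

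Cytokine receptors have no kinase activity of their own and signal through bound Janus kinases (JAKs), which phosphorylate STAT proteins that then enter the nucleus and switch on genes. Most receptors of the interleukin-6 family share the chain gp130, encoded by Il6st, and act mainly through STAT3, which is known to drive Gfap and the reactive state of astrocytes. Type I interferon acts through STAT2, which binds IRF9 in the complex ISGF3, and STAT6 and STAT5 serve other cytokines. SOCS proteins are induced by STATs and shut the receptors down again.

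Values are normalized counts, which are reads divided by 1 size factor per library, and FPKM, which are reads scaled to gene length and to all reads on genes and are used where genes are compared with each other. The libraries held 18749610 to 22673555 reads on genes. The targeted gene Tet1 (ENSMUSG00000047146) was counted at 266 and 121 (normalized) in WT and 173 and 463 in those labelled KO. Tet1 was thus not lower under the KO label, a count per gene does not tell transcripts with and without a targeted exon apart, and every direction below rests on the label. All 10 astrocyte markers were detected; 5 were lower and 1 higher without overlap between the labels (median log2 fold change -0.73), 2 of the lower ones, Slc1a2 and Sox9, at an unadjusted p under 0.05 (limma). Their summed normalized counts were 178648 to 183415 in WT and 52356 to 290379 in the KO-labelled libraries, of which Gfap alone gave 9945 in the lower and 174853 in the higher. Of 18 microglia and macrophage markers, 17 were lower in both KO-labelled libraries than in both WT libraries, with sums of 3064 to 5871 in WT and 706 to 1140 in the KO-labelled libraries, and 1 of them, P2ry12, was under 3 reads in both KO-labelled libraries. All 10 proliferation markers were higher, with sums of 300 to 1568 in WT and 4240 to 7635 in the KO-labelled libraries. Of 6 neuron markers tested, 4 were higher and none lower without overlap (median 1.73), with sums of 3817 to 4334 in WT and 4618 to 4797 in the KO-labelled libraries. Among the higher ones, Dcx had at most 7 reads in a library, and Rbfox3 at most 2 outside KO-labelled replicate 1. Map2, the most counted of the list, overlapped between the labels, at -0.01. Of 6 endothelial and mural markers, 2 were higher and 1 lower without overlap, and their sums, mostly Acta2 except in WT replicate 1, were 4144 to 11222 in WT and 24540 to 51436 in the KO-labelled libraries. Counted in the same way, 2 were lower and 1 higher of 8 oligodendrocyte lineage markers. Of 5 meningeal fibroblast markers 2 were lower and 1 higher, and of 3 ependymal markers 1 was lower. Beside the counts of all these lists, 25.4% of all 22094 genes tested were lower and 22.5% higher without overlap. At an unadjusted p under 0.05 (limma), 9.18% of all genes were lower. Xist, with at most 8.54 normalized counts in WT and at least 2896 in the KO-labelled libraries, and the Y-linked genes, with sums of 1909 to 3765 in WT and 0 to 830 in the KO-labelled libraries, also separated the labels. The part of cell makeup, proliferation and pup sex in the results below was not tested, and in bulk RNA fewer cells of a type and less RNA per cell cannot be told apart.

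Of the 9 genes, 8 were lower in both KO-labelled libraries than in both WT libraries, against 25.4% of all 22094 genes tested (22.5% were higher in both). Stat5b was the exception, and its groups overlapped. The 4 genes with an unadjusted p under 0.05 from limma, all lower, were Stat2, Osmr, Socs3 and Stat5a, against 9.18% of all genes tested lower and 4.54% higher. None of the 9 reached an adjusted p under 0.05 from limma (Benjamini-Hochberg over all genes tested), a threshold passed by 0.0% of all genes. On the same reads 5 of the 9 had an unadjusted p under 0.05, all lower, and none an adjusted one in edgeR's quasi-likelihood test, against 8.14% of all genes lower and 4.23% higher at the unadjusted threshold. DESeq2 called 1 of the 9, Stat2, where it called 3.63% of all genes lower and 1.29% higher. The median log2 fold change of the 9 genes was -1.06, beside -0.07 over all genes tested. Quantile normalization moved the median of all genes by 0.14, and relative to the median the 9 genes lay between -2.87 (Stat2) and -0.27 (Stat5b) as deposited and between -3.02 and -0.52 after it. All 9 passed the filter on low values, with 81 to 24481 reads per gene and library.

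**Figure D1:**
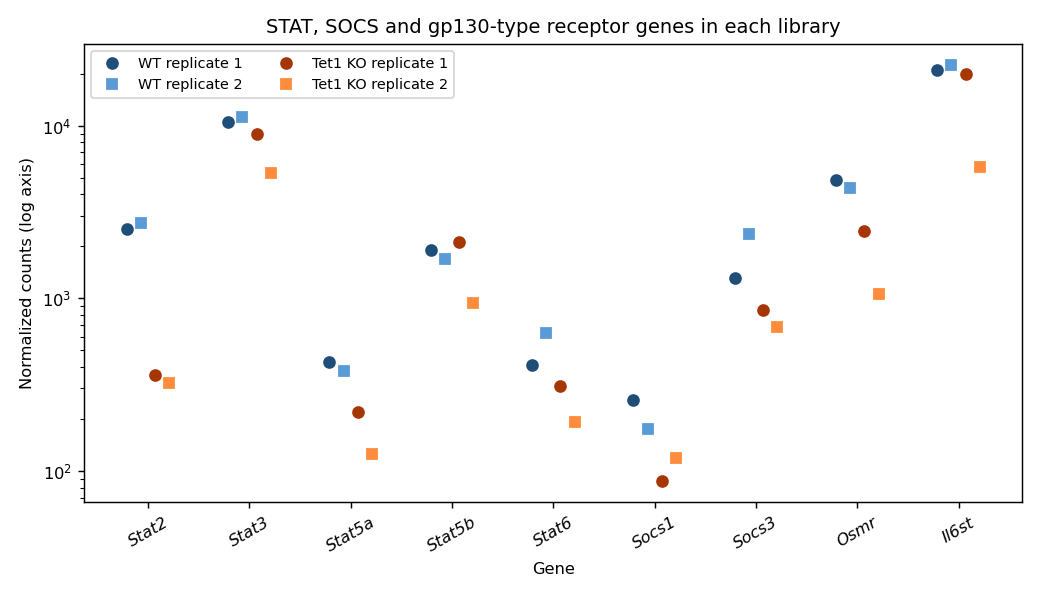
Normalized counts (log axis) of the 9 genes in each of the 4 libraries. Both libraries labelled Tet1 KO (orange) lie below both WT libraries (blue) for every gene except Stat5b, by a wide gap for Stat2 (at most 358 against at least 2503) and by a narrow one for Il6st in replicate 1 (19785 against 20951).

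Stat2 showed the largest difference of the 9. It encodes the STAT that, with IRF9, carries the type I interferon signal to DNA, and it spans bases 128270559 to 128292849 of chromosome 10 (GRCm38, plus strand, ENSMUSG00000040033). It was counted at 2503 and 2725 (normalized) in WT, against 358 and 323 in the KO-labelled libraries. The groups were far apart and each was tight, and the mean under the KO label was 13.0% of the WT mean. The 4 differences, each of 1 KO-labelled and 1 WT library, ran from -3.07 to -2.80 on the log2 scale. The limma log2 fold change was -2.94 (standard error, SE, 0.28, 95% interval -3.65 to -2.23, adjusted p = 0.0777 from limma), which is 7.67-fold lower. That adjusted p was the lowest in the whole fit, shared by 30 genes. The adjusted p was 3.69e-10 in DESeq2 (log2 fold change -2.94) and 0.0843 in edgeR (-2.98), and over the alternatives other than DESeq2 the adjusted p of Stat2 ran from 0.0593 to 0.967 (limma and edgeR). With each library left out in turn its log2 fold change stayed between -3.01 and -2.87.

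The 250 bases before the start of Stat2 in RefSeq (GRCm38.p6) hold the letters of the core of an interferon-stimulated response element, the DNA element that ISGF3 binds. The stretch is shown because Stat2 is the member with the widest gap and lies, with its partner gene, inside the interferon pathway. It covers chr10:128270248-128270317 on the plus strand, 250 to 181 bases before the start, with capitals marking the 2 matches.
Stat2: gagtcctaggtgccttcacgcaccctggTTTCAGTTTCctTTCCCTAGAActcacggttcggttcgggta
The first match, 222 bases before the start, reads GAAA, any 2 bases, GAAA on the opposite strand. That pattern, searched on both strands, occurs in 3.44% of the 32851 promoter windows of the same length in the RefSeq table. The second, 210 bases before the start, is TTC and GAA with any 4 bases between, the form that STAT6 is known to prefer, and occurs in 6.95% of the windows. These are matches of letters and no measurement of binding.

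Stat3, the main STAT of the interleukin-6 family and the most abundant of the STATs here, lies on chromosome 11 from 100885098 to 100939540 on the minus strand (ENSMUSG00000004040). It was counted at 10488 and 11181 (normalized) in WT, against 8980 and 5327 in the KO-labelled libraries. The groups did not overlap, but replicate 1 labelled KO lay close below WT. The log2 fold change was -0.65 (SE 0.37, 95% interval -1.57 to 0.27, adjusted p = 0.489 from limma), and single libraries left out took it to between -1.02 and -0.27, the latter without KO-labelled replicate 2.

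Stat5a and Stat5b encode near-identical STATs of growth hormone, prolactin and other cytokines, and lie side by side on chromosome 11. Stat5a (ENSMUSG00000004043, 100859351 to 100885169, plus strand) was counted at 427 and 381 (normalized) in WT, against 218 and 125 in the KO-labelled libraries. The log2 fold change was -1.28 (SE 0.42, adjusted p = 0.310 from limma). Stat5b (ENSMUSG00000020919, 100780731 to 100850724, minus strand) was counted at 1897 and 1677 (normalized) in WT, against 2108 and 944 in the KO-labelled libraries. Labelled KO replicate 1 was the highest of the 4 libraries and replicate 2 the lowest, so the log2 fold change of -0.34 (SE 0.45, adjusted p = 0.771 from limma) lay within the spread between replicates, and it was 0.24 without KO-labelled replicate 2. Per length, Stat5a stood to Stat5b at 0.175 and 0.176 in the WT libraries, against 0.0805 and 0.103 in the KO-labelled libraries. The ratios of the 2 genes did not overlap between the labels, although with 2 libraries a side an exact permutation test of a single value cannot give a two-sided p below 0.333. Reads from stretches that the paralogs share may have been split between them by the counting, which is not given in the sources used here. Stat5a and Stat3 also overlap tail to tail over 72 exonic bases on opposite strands, where reads cannot be told apart without strand.

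Stat6, the STAT of interleukin-4 and interleukin-13, lies on chromosome 10 from 127642986 to 127660957 on the plus strand (ENSMUSG00000002147) and shares 40 exonic bases with Nab2 on the other strand. It was counted at 413 and 632 (normalized) in WT, against 311 and 191 in the KO-labelled libraries. The groups did not overlap, the log2 fold change was -1.06 (SE 0.43, 95% interval -2.13 to 0.01, adjusted p = 0.366 from limma), and leaving out each library gave -1.41 to -0.71.

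**Figure D2:**
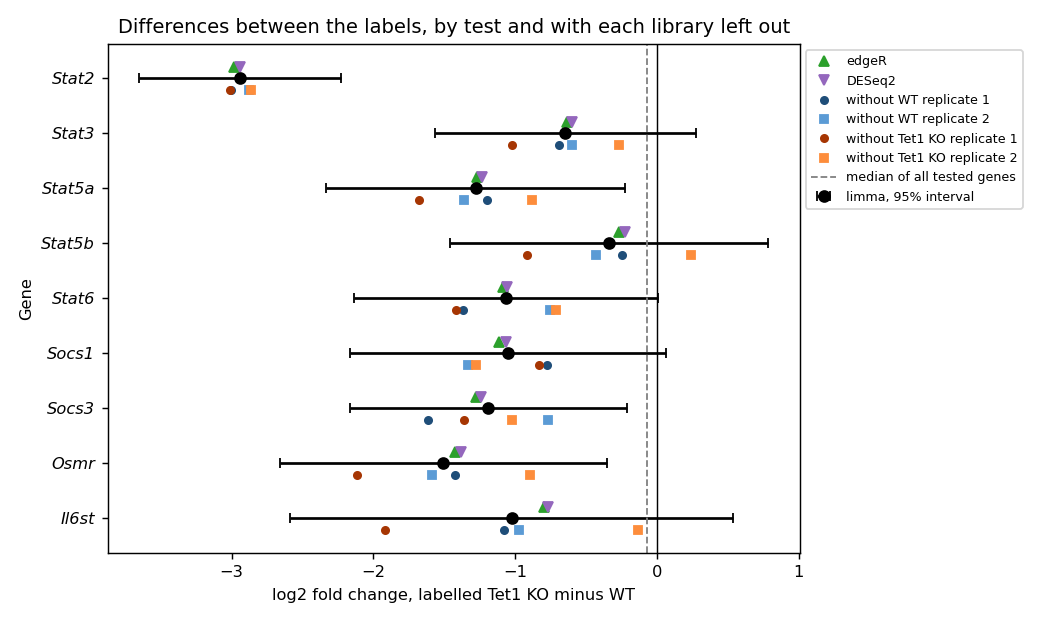
The log2 fold change (labelled Tet1 KO minus WT) of each gene from limma with its 95% interval, from edgeR and DESeq2, and from limma with each library left out; the dashed line is the median of all tested genes (-0.07). The values of Stat2 lie close together near -2.94, whereas those of Il6st spread from -1.92 to -0.13 depending on the library left out.

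Per length, Stat3 made up the largest part of the transcripts of the 5 STAT genes in every library, with 54.5% and 55.0% of their summed FPKM in WT, against 63.5% and 66.2% in the KO-labelled libraries. Stat2 was the next in WT, with 20.9% and 21.6%, and made up 4.06% and 6.44% in the KO-labelled libraries. The share of Stat5b was 17.0% and 14.2% in WT, against 25.6% and 20.2% in the KO-labelled libraries. Shares add up to a fixed total, so a lower share of Stat2 raises the others. The ratio of Stat2 to Stat3, which does not have that limit, was 0.384 and 0.392 in WT, against 0.0640 and 0.0974 in the KO-labelled libraries, without overlap. The shares of Stat6 overlapped between the labels, at 4.64% and 6.73% in WT, against 4.77% and 5.14% in the KO-labelled libraries.

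**Figure D3:**
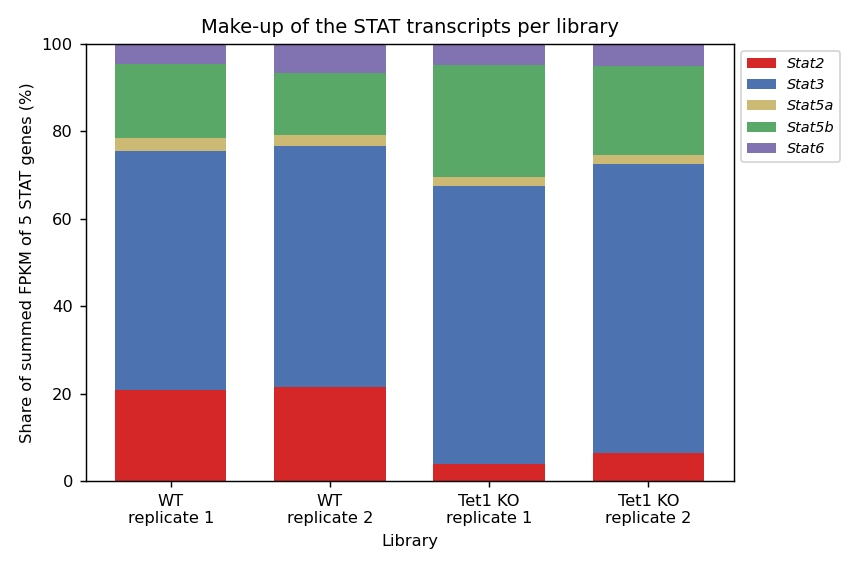
Share of each gene in the summed FPKM of the 5 STAT genes, in percent, in each library. The band of Stat2 narrows from 20.9% and 21.6% in the WT libraries to 4.06% and 6.44% in those labelled Tet1 KO, while Stat3 remains the widest band in all 4 libraries.

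Il6st encodes gp130, the chain that most receptors of the family share, and lies on chromosome 13 from 112464070 to 112510086 on the plus strand (ENSMUSG00000021756). It was the most abundant of the 9 genes per length, with 95.8 ± 2.07 FPKM in WT (SD, n = 2) and 53.1 ± 38.7 in the KO-labelled libraries (SD, n = 2). Its normalized counts were 20951 and 22512 in the WT libraries, against 19785 and 5756 in the KO-labelled libraries. The groups did not overlap, but only KO-labelled replicate 2 stood clearly apart from WT, and without it the log2 fold change of -1.03 (SE 0.62, 95% interval -2.59 to 0.54, adjusted p = 0.517 from limma) was -0.13.

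Osmr encodes the chain that pairs with gp130 to bind oncostatin M, and lies on chromosome 15 from 6813577 to 6874969 on the minus strand (ENSMUSG00000022146). It was counted at 4854 and 4335 (normalized) in WT, against 2463 and 1058 in the KO-labelled libraries. Both KO-labelled libraries were clearly below both WT libraries, with a log2 fold change of -1.51 (SE 0.46, 95% interval -2.66 to -0.35, adjusted p = 0.284 from limma) that lay between -2.11 and -0.90 when single libraries were left out. Per length, Osmr stood to Il6st at 0.212 and 0.176 in WT, against 0.114 and 0.168 in the KO-labelled libraries, so the second library labelled KO lay close to WT in this ratio. The ligand gene Osm itself was hardly detected, with 0 and 7.36 normalized counts in WT, against 0 and 0.90 in the KO-labelled libraries, where 3 reads are worth 2.70 to 3.21.

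Other receptor chains of the family were read beside these. Of 6 such chains in the list, 5 were lower in both KO-labelled libraries and 1 was higher in both, with 3 lower at an unadjusted p under 0.05 and none at an adjusted one (limma), where 25.4% of all genes were lower and 22.5% higher without overlap and 9.18% were lower at that p. Il6ra, the interleukin-6 binding chain, had 665 and 1087 normalized counts in WT, against 147 and 294 in the KO-labelled libraries (log2 fold change -2.03, SE 0.48, adjusted p = 0.218 from limma). Cntfr, the binding chain for ciliary neurotrophic factor, had 783 and 651 in WT, against 225 and 99.1 in the KO-labelled libraries (log2 fold change -2.25, SE 0.49, adjusted p = 0.195 from limma). DESeq2 called both, with adjusted p-values of 0.0138 for Il6ra and 0.00633 for Cntfr. Of all genes tested it called 3.63% lower and 1.29% higher. Lifr, the chain for leukaemia inhibitory factor, and Il11ra1, that for interleukin-11, had log2 fold changes of -0.95 and -1.27 with adjusted p-values of 0.453 and 0.466 (limma). Of these, Il11ra1 followed Il6st in that KO-labelled replicate 2 stood apart, at 485 normalized counts against 1968 in replicate 1 and 2353 and 2377 in WT. The third chain with an unadjusted p under 0.05 (limma), Il27ra for interleukin-27, was scarce, at 12.8 and 19.3 normalized counts in WT, against 0 and 2.70 in the KO-labelled libraries. The higher chain, Il31ra, was scarce too, with at most 15 reads in a library.

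Ligand genes of the family varied mostly between the KO-labelled libraries. Lif had 212 and 271 normalized counts in WT, against 67.4 and 1484 in the KO-labelled libraries. Clcf1, which encodes a ligand of the ciliary neurotrophic factor receptor, had 1057 and 1153 in WT, against 1008 and 5302 in the KO-labelled libraries. Il11 had 6.40 and 9.20 in WT, against 1.07 and 71.2 in the KO-labelled libraries. KO-labelled replicate 2 was the library in which each of the 9 described genes except Socs1 was at its lowest. In all 3 of these ligand genes it was the highest of the 4 libraries, and KO-labelled replicate 1 was the lowest. Ctf1, encoding cardiotrophin-1, was instead lowest in KO-labelled replicate 2, at 179 against 500 to 716 in the others. Il6 had 17.1 and 28.5 normalized counts in WT, against 0 and 9.01 in the KO-labelled libraries. Of the 9 ligand genes tested, 7 overlapped between the labels and 2 were lower without overlap, where 25.4% of all genes were lower. Those 2, Il6 and Ebi3, had at most 31 and 21 reads in a library. None of the 9 had an unadjusted p under 0.05 (limma), where 9.18% of all genes were lower and 4.54% higher.

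**Figure D4:**
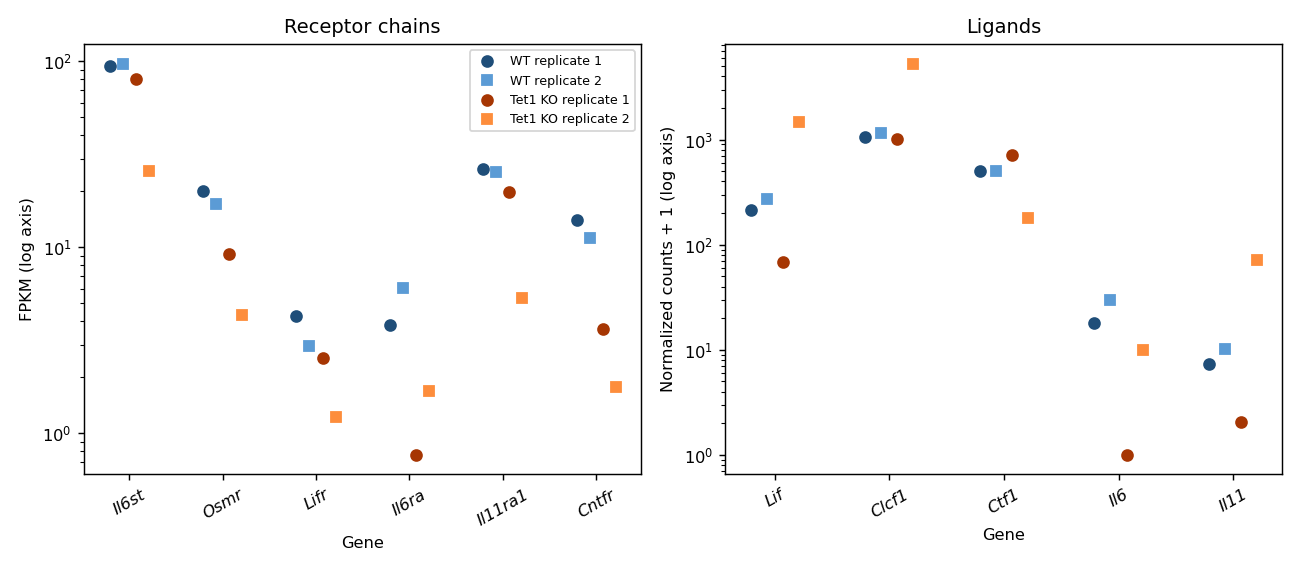
Left, FPKM (log axis) of Il6st, Osmr and 4 other receptor chains in each library. Right, normalized counts plus 1 (log axis) of 5 ligand genes. The receptor chains lie lower in both libraries labelled Tet1 KO, while Lif and Clcf1 in KO-labelled replicate 2 (1484 and 5302 normalized counts) lie above all other libraries.

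Socs3, the inhibitor that binds gp130 itself and a classical target of STAT3, lies on chromosome 11 from 117966079 to 117970047 on the minus strand (ENSMUSG00000053113). It was counted at 1302 and 2340 (normalized) in WT, against 858 and 680 in the KO-labelled libraries. The groups did not overlap, although the WT libraries were further apart (0.85 on the log2 scale) than those of any other of the 9 genes. The log2 fold change was -1.19 (SE 0.39, 95% interval -2.17 to -0.21, adjusted p = 0.309 from limma), and leaving out each library gave -1.61 to -0.77. Set against Stat3 per length, Socs3 stood at 0.409 and 0.690 in WT, against 0.315 and 0.421 in the KO-labelled libraries, and these ratios overlapped.

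Socs1, the inhibitor best known for restraining interferon signalling, lies on chromosome 16 from 10782240 to 10785536 on the minus strand (ENSMUSG00000038037). It was the least counted of the 9, with 256 and 174 normalized counts in the WT libraries, against 86.7 and 118 in the KO-labelled libraries. The groups did not overlap, and the log2 fold change was -1.05 (SE 0.44, 95% interval -2.17 to 0.06, adjusted p = 0.385 from limma), or -1.33 to -0.77 with each library left out. Quantile normalization brought Socs1 to -0.68, or from -0.98 to -0.75 relative to the median of all genes.

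Both SOCS genes have STAT or interferon elements by letter match in the 250 bases before their RefSeq starts, and these stretches are shown because the genes are known to be induced through such elements. The Socs1 stretch is chr16:10785597-10785666 on the minus strand, 130 to 61 bases before the start. The Socs3 stretch is chr11:117969467-117969536 on the minus strand, 170 to 101 bases before the start, inside the GENCODE gene but outside its exons. Capitals mark the matches.
Socs1: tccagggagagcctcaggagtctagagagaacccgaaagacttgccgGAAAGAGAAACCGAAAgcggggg
Socs3: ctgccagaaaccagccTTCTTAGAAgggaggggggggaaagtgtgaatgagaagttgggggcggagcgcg
In Socs1 the capitals are 2 matches to the interferon element (GAAA, any 2 bases, GAAA) that overlap by 4 bases, starting 83 and 77 bases before the start. In Socs3 they are 1 match to TTCNNNGAA, the gamma-activated sequence that STAT dimers bind, starting 154 bases before the start. TTCNNNGAA, searched on both strands, occurs in 8.30% of all promoter windows. Of the 11 windows of the 9 genes, 1 held TTCNNNGAA, 1 the form with 4 bases between and 2 the interferon element, and no match in the other windows says only that these letters are not in them.

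Per length, the order of the 9 genes in WT was Il6st, Stat3, Socs3, Stat2, Osmr, Stat5b, Stat6, Socs1 and Stat5a, from 95.8 to 2.78 FPKM. Each gene lay above the next in both WT libraries except Socs1 and Stat5a, which overlapped. In the KO-labelled libraries the order of the means was Il6st, Stat3, Stat5b, Socs3, Osmr, Stat2, Stat6, Socs1 and Stat5a. There Stat2 was at 2.71 ± 0.0183 FPKM (SD, n = 2), after 21.6 ± 0.663 in WT (SD, n = 2), and could not be placed above Stat6, at 2.67 ± 0.738 (SD, n = 2). Il6st and Stat3, Stat5b and Socs3, and Socs1 and Stat5a also overlapped there.

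The 2 KO-labelled libraries differed from each other in most of the 9 genes. Replicate 2 was below replicate 1 in 8 of them, Socs1 being the exception, where among genes with a mean of at least 50 normalized counts replicate 2 was the lower in 50.6%. Il6st, Osmr and Stat5b differed by more than 2-fold between these 2 libraries, as did 28.6% of those genes. None of the 9 differed by that much between the WT libraries, where the share was 10.7%. Stat2 (log2 difference -0.15) and Socs3 (-0.33) were the closest between the KO-labelled libraries.

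Across the 4 libraries, the profiles of Socs3 and Stat6 were the most alike within the set, with a root mean square difference of 0.167 on the log2 scale after centring each gene on its mean. Stat5a and Osmr followed with 0.187, and Stat3 and Stat5b with 0.231. The nearest member to Stat2 was Osmr, at 0.817, which ranked 581 among 12867 genes by nearness. Among all genes with a mean of at least 50, the nearest profiles were those of A730017C20Rik for Stat2, Gnb5 for Stat3, Hook2 for Stat5a, Tom1 for Stat5b, Kazald1 for Stat6, D630033A02Rik for Socs1, Sox13 for Socs3, Tmem35b for Osmr and Rsph9 for Il6st. With 4 libraries many genes lie this near, at 0.0107 to 0.0790, and the likeness is a description only.

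The kinases that couple these receptors to STATs showed no common direction. Jak1, the kinase used by gp130 receptors and interferon receptors alike, had 3448 and 2837 normalized counts in WT, against 4044 and 3806 in the KO-labelled libraries, higher in both (log2 fold change 0.33, SE 0.28, adjusted p = 0.639 from limma). Tyk2, which serves interferon receptors, had a log2 fold change of 0.07 (adjusted p = 0.951 from limma) that changed sign under median log ratio scaling and without KO-labelled replicate 2. Jak2 and Jak3 were lower without overlap, with log2 fold changes of -0.67 and -0.99 and adjusted p-values of 0.500 and 0.505 (limma). Jak3 was nearly tied between KO-labelled replicate 1 and WT replicate 1, at 455.99 and 456.66 normalized counts. In FPKM Jak2 did overlap, at 11.3 in KO-labelled replicate 2 and 11.2 in WT replicate 2. Without overlap in normalized counts, 25.4% of all genes tested were lower and 22.5% higher. Per length, Il6st stood to Jak1 at 3.96 and 5.17 in WT, against 3.19 and 0.985 in the KO-labelled libraries.

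Among the other inhibitors, none of 6 further SOCS genes and none of 4 PIAS genes had an unadjusted p under 0.05 (limma). Of the 6 SOCS genes 4 overlapped between the labels and 2 were lower without overlap, Cish (-0.56) and Socs7 (-0.54). The median log2 fold change of the 6 was -0.14. Of the 4 PIAS genes 2 were higher without overlap and the median was 0.27. Over all genes tested, 25.4% were lower and 22.5% higher without overlap. At an unadjusted p under 0.05 (limma), 9.18% were lower and 4.54% higher. Of 4 phosphatases only Ptpn6, a phosphatase known mainly from blood cells and microglia, had an unadjusted p under 0.05, with 50.1 and 191 normalized counts in WT, against 9.63 and 24.3 in the KO-labelled libraries.

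Of 16 other cytokine receptor genes tested, 11 were lower and 2 higher without overlap, with 8 lower at an unadjusted p under 0.05 (limma). Over all genes tested, 25.4% were lower and 22.5% higher without overlap, and 9.18% were lower at that p. Ifnar2, a chain of the type I interferon receptor upstream of STAT2, had 1082 and 994 normalized counts in WT, against 552 and 451 in the KO-labelled libraries. Its log2 fold change was -1.05 (SE 0.30, adjusted p = 0.266 from limma). The other chain of that receptor, Ifnar1, was higher in both KO-labelled libraries. It had 1619 and 2064 normalized counts in WT, against 2154 and 2303 in the KO-labelled libraries (log2 fold change 0.29, adjusted p = 0.697 from limma). Ifngr1, an interferon-gamma receptor chain, was at -1.11 (SE 0.29, adjusted p = 0.248 from limma). The other such chain, Ifngr2, overlapped between the labels, at 0.03. Il10rb, shared by several interleukin receptors, was at -0.94 (SE 0.36, adjusted p = 0.356 from limma). Il13ra1, a receptor chain upstream of STAT6, had 831 and 461 normalized counts in WT, against 136 and 132 in the KO-labelled libraries, and DESeq2 called it (log2 fold change -2.27, adjusted p = 0.000867), where limma gave -2.20 with an adjusted p of 0.169. Il4ra, another receptor chain upstream of STAT6, overlapped between the labels, at -0.28. Il10ra and Csf2rb, receptor chains known from microglia, had 19.2 and 73.6, and 41.6 and 43.2, normalized counts in WT. In the KO-labelled libraries both had at most 3.61.

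Genes that STATs are known to switch on were read in 2 lists. Of 13 textbook targets of STAT3 and STAT5, 8 were lower and 1 higher without overlap, with 6 lower and 1 higher at an unadjusted p under 0.05 and none at an adjusted one (limma). The shares of all genes were 25.4% lower and 22.5% higher without overlap, and 9.18% lower and 4.54% higher at that p. Pim1, a survival kinase, had 870 and 837 normalized counts in WT, against 272 and 330 in the KO-labelled libraries (log2 fold change -1.51, SE 0.31, adjusted p = 0.184 from limma). Cebpd, a transcription factor of the acute-phase response, had 12978 and 12773 in WT, against 2996 and 3857 in the KO-labelled libraries (log2 fold change -1.92, SE 0.30, adjusted p = 0.139 from limma). Bcl3, an atypical inhibitor of NF-kB, had 595 and 364 in WT, against 6.42 and 30.6 in the KO-labelled libraries (log2 fold change -4.93, SE 0.81, adjusted p = 0.147 from limma). Lcn2 and Serpina3n, markers of reactive astrocytes, and Junb were the other lower ones, at -8.03, -3.61 and -1.36. The KO-labelled libraries were far apart in Lcn2, at 73.9 and 5663 normalized counts, against 178274 and 162703 in WT (SE 1.92, adjusted p = 0.219 from limma). Its log2 fold change was -5.95 in edgeR and -5.89 in DESeq2. Serpina3n had 28140 and 19645 in WT, against 4108 and 899 in the KO-labelled libraries (SE 0.74, adjusted p = 0.182 from limma). Mcl1, which protects cells from death, was the higher one, at 0.72 (adjusted p = 0.359 from limma). Gfap went with none of these, at 58004 and 67297 normalized counts in WT, against 174853 and 9945 in the KO-labelled libraries.

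All 10 genes of the list of ISGF3 partner and target genes were lower without overlap and had an unadjusted p under 0.05, and none had an adjusted one under 0.05 (limma), beside 25.4% and 9.18% of all genes lower by these measures. Their median log2 fold change was -4.82, and DESeq2 called all 10, where it called 3.63% of all genes lower and 1.29% higher. Irf9, the DNA-binding partner of STAT2, had 2211 and 2463 normalized counts in WT, against 823 and 352 in the KO-labelled libraries (log2 fold change -2.11, SE 0.46, adjusted p = 0.197 from limma). Usp18, which restrains the type I interferon receptor and is itself induced through ISGF3, was at -4.02 (SE 0.40, adjusted p = 0.0804 from limma), and Bst2, an antiviral membrane protein, at -3.22 (SE 0.32, adjusted p = 0.0777 from limma). The list was written with earlier results of these libraries known, and it is no independent evidence of its direction.

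**Figure D5:**
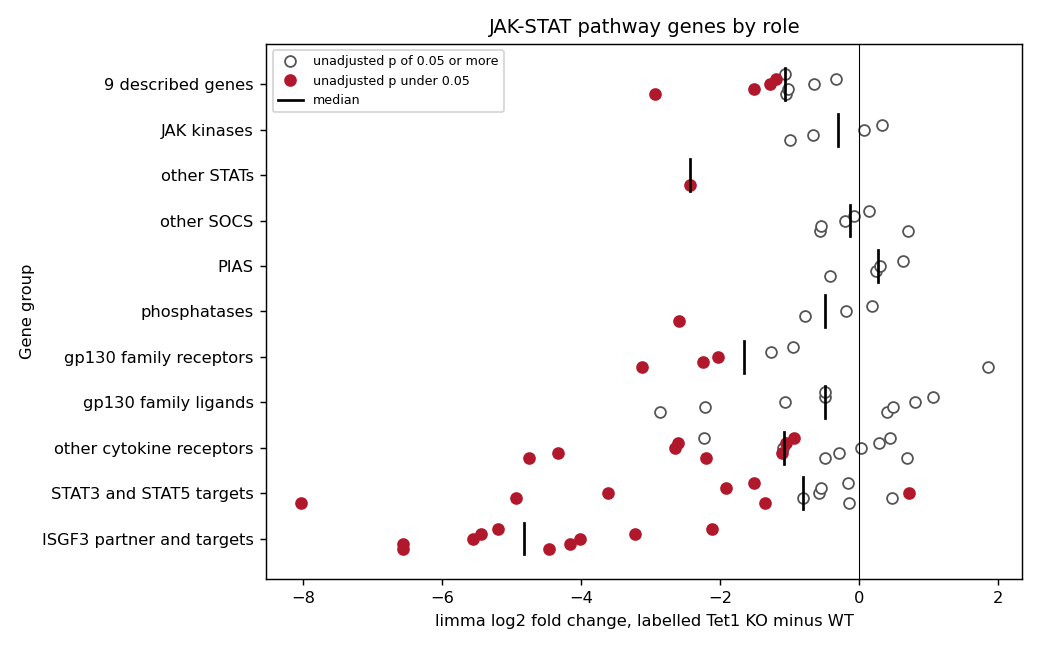
The limma log2 fold change (labelled Tet1 KO minus WT) of each pathway gene by role, filled where the unadjusted p was under 0.05, with the median of each group as a vertical bar. The ISGF3 partner and target genes lie at a median of -4.82 and the 9 described genes at -1.06, while the JAK kinases (-0.30), PIAS (0.27) and other SOCS genes (-0.14) lie near 0.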

How the data were processed

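RNA-seq libraries of primary mouse astrocytes were grouped by the titles in their labels (2 WT, 2 Tet1 KO). Per the study, paired-end reads were filtered, and those retained were mapped to the mouse build mm10. The aligner, counter and annotation are not given in the sources used here. For each gene the authors deposited a signal in every library, in a table named for FPKM, but 100% of the values were whole multiples (within 0.05) of the value of 1 read, so they are counts divided by a size factor, and whole reads were recovered. The deposited group means, fold changes and p-values of the authors were not used. FPKM values came from these reads, with lengths as deposited and library totals over genes.

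limma 3.58.1 (R 4.3.3; lmFit, eBayes with a variance trend) took log2(normalized count + 1) of genes averaging 1 or more (22094 genes), on which changes of low genes are understated, with Benjamini-Hochberg adjustment over all of them. The whole reads went into edgeR 4.0.16 (quasi-likelihood) and DESeq2 1.42.0. The design had foreseen limma for normalized values. The fits were tested on simulated data. Alternatives were pseudocounts of 0.1 and 5, no filter, a mean minimum of 10, other scalings, no variance trend, a replicate block, FPKM as the tested value, and each library left out.

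The members and lists were chosen with earlier results of these data known. Named pathway genes were those with groups that do not overlap and an unadjusted p under 0.05, plus receptor and ligand genes read beside a member. The other JAK kinases, Ifnar1, Ifngr2, Il4ra, Gfap and the likeness between members were added after their values were seen. Not every gene that met the rule is named, and those that are were picked with values known. Of 76 pathway genes, 74 were listed and 73 tested. Values of some listed genes are not reported here. Positions were those deposited, which are the same in GENCODE M21; promoter windows (250 bases before to 50 after a start) are from RefSeq, in which all 9 members matched. Plots used Python 3.11.15 and matplotlib 3.10.9.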

Additional observations from a re-analysis of the deposited data

How the results depend on the processing

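Over 16 alternatives, the direction of 8 of the 9 members stayed as reported, and the log2 fold change of Stat5b lay between -0.92 and 0.24 when single libraries were left out, the last without KO-labelled replicate 2. The count of members at an adjusted p under 0.05 was 0 except with DESeq2, which called 1 (Stat2), and DESeq2 also called 1088 genes in all and 23 of the pathway list. With FPKM as the tested value, 2 genes in all and 1 of the pathway list (Isg15) were called. The count of members with an unadjusted p under 0.05 was 2 without a variance trend (13.5% of all genes). With single libraries left out it was 2 without WT replicate 1 (4.73% of all genes), 1 without WT replicate 2 (6.20%), 7 without KO-labelled replicate 1 (22%) and 4 without KO-labelled replicate 2 (13.8%); the lone library of a group is assumed to vary like the others. The count of members without overlap between the groups was 8, against 44.7% to 51.0% of all genes in either direction with all 4 libraries, and with a lone library in a group 8 or 9, against 64.7% to 79.9% of all genes. Leaving out each library moved the log2 fold changes of Tyk2 from -0.20 to 0.33, Gfap from -2.65 to 1.48, Lif from -1.82 to 2.62, Clcf1 from -0.13 to 2.26, Il11 from -2.07 to 3.06, Ctf1 from -1.48 to 0.51 and Tet1 from -0.051 to 1.36, each with the opposite sign to that reported without KO-labelled replicate 2. Gfap was also reversed in edgeR (0.54) and DESeq2 (0.56), and Tyk2 under median log ratio scaling (-0.0077). The cause was not tested. Of 685 values for 43 of the named genes, 659 kept their direction and side of the threshold, 11 reversed, and 15 passed the threshold in DESeq2 alone. The replicate numbers of the labels are not described as a pairing, and deviations of same-numbered libraries had a correlation of -0.08 over 22094 genes. With the replicate block, Stat2 had an adjusted p of 0.137 (limma), the count of members at an adjusted p under 0.05 was 0, and 2583 genes had an unadjusted p under 0.05, against 3032 without it.

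With 2 libraries a group the intervals are wide, and low genes such as Osm rest on a few reads.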
